A study of Mus musculus with 24 samples.

Results

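The genes described here are 9 extracellular or membrane-bound antagonists and modulators of bone morphogenetic protein (BMP) and activin signalling, namely Bmper, Chrd, Twsg1, Nog, Grem1, Fst, Fstl3, Fstl1 and Bambi. They were taken by name from the gene symbols of the 4 count tables, and all 9 were found in each table among 48574 symbols. The data are bulk RNA-seq counts of 24 libraries from the livers of mice labelled C57BL/6 (C57BL/6J by the study's methods), with 3 mice in each of 8 groups. The study asked how liver macrophages, hepatic endothelial cells (ECs) and whole livers change when the BMP ligands GDF2 (BMP9) and BMP10 are lost, and how macrophages change when Smad4 is lost.

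In Gdf2/Bmp10 HSC-KO mice both ligand genes are floxed and deleted by Lrat-Cre, which is active in hepatic stellate cells (HSCs). Their macrophages (CD45+Ly6C-F4/80+CD64+) and ECs (CD45-CD31+) were sorted from mice aged 8 to 10 weeks, and livers were taken at 12 weeks, each beside control mice. Smad4 cKO mice carry floxed Smad4 deleted by Vav1-Cre, which is active in blood cells, and their macrophages were sorted by the same gate at 8 to 10 weeks beside Smad4 floxed controls. The deletion in HSC-KO mice lies in a cell type that was sorted in neither gate. The EC gate takes every CD31+ cell without CD45 and does not separate sinusoidal from other vessels.

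BMPs are secreted ligands that bind paired serine/threonine kinase receptors and act through SMAD proteins, with SMAD4 as the shared partner. Noggin, gremlin, chordin, BMPER and TWSG1 bind the ligands outside the cell, and chordin, BMPER and TWSG1 can either hold a ligand back or help to deliver it. Follistatin and FSTL3 bind activins most tightly, FSTL1 is a secreted glycoprotein of the follistatin family with several reported partners, and BAMBI is a membrane protein that resembles a type I receptor but lacks the kinase domain. In the liver, BMP2 and BMP6 from sinusoidal ECs drive hepcidin in hepatocytes, and GDF2 and BMP10 signal to ECs and Kupffer cells.

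Library totals ranged from 60911527 to 110879155 counts over the 24 libraries. Levels are given as CPM, the count scaled to a fixed library size. A count of 0 allows a level of up to 3 counts in a library, at most 0.0524 CPM in any group, and this limit covers counting error only. In the HSC-KO livers, Bmp10 fell from 362, 209 and 180 counts to 7, 22 and 8, and Gdf2 fell from 2036, 720 and 2030 counts to 287, 178 and 189. Smad4 fell from 3894, 3185 and 4416 counts in control macrophages to 1669, 1461 and 1289 in Smad4 cKO macrophages. The summed level of 10 endothelial markers was 16776 to 17184 CPM in control ECs and 11185 to 13207 CPM in HSC-KO ECs. That of 10 macrophage markers was 39428 to 42258 CPM in control macrophages and 8869 to 9244 CPM in HSC-KO macrophages, and 33092 to 40922 CPM against 8430 to 10183 CPM in the Smad4 pair. Control and HSC-KO means were 11723 and 9.32 CPM for Clec4f, 12156 and 41.1 CPM for Cd5l, 3602 and 24.1 CPM for Vsig4, 699 and 34.1 CPM for Timd4 and 378 and 3.63 CPM for Marco, all genes of Kupffer cells. For the other 5 macrophage markers the means were 5414 and 3178 CPM for Csf1r, 2099 and 1262 CPM for Cd68, 1010 and 685 CPM for Adgre1, 3567 and 3499 CPM for C1qa, and 317 and 333 CPM for Fcgr1.

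Bmper and Fstl1 were the members called in HSC-KO ECs by edgeR's test, and their promoters are shown here. Both are given 5′ to 3′ on the plus strand from 250 bases before to 50 bases after the RefSeq start (GRCm38.p6), for Bmper at chr9:23222826-23223125 and for Fstl1 at chr16:37776805-37777104. Capitals mark matches on either strand to 4 motifs. GGCGC is a GC-rich motif that SMAD proteins can bind. Another motif of the same kind is GGCCG. The SMAD box was searched as CAGAC. GATA factors bind the letters GATAA.
Bmper: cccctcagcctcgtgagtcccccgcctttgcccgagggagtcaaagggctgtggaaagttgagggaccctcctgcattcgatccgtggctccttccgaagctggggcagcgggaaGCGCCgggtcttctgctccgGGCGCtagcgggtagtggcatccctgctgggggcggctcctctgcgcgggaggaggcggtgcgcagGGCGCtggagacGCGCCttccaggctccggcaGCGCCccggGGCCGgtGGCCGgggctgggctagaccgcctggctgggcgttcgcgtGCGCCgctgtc
Fstl1: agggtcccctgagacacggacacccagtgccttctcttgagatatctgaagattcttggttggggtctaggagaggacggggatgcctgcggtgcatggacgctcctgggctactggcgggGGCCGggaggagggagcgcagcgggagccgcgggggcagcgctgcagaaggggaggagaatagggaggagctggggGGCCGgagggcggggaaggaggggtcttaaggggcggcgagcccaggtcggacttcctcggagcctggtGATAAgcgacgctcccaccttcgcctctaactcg
The Bmper promoter held 6 matches to the first GC-rich motif, 2 to the second and none to the SMAD box or the GATA motif. The Fstl1 promoter held none of the first GC-rich motif or of the SMAD box, 2 matches to the second GC-rich motif and 1 to the GATA motif, which lies just after the start. Of 32851 promoters of this length, 36.9% held the first GC-rich motif, 35.2% the second, 49.6% the SMAD box and 25.4% the GATA motif. The GC-rich motifs can overlap each other, and 72.7% of the bases shown for Bmper and 66.7% of those for Fstl1 are G or C, against a median of 52.7% over all promoters. A match describes the letters and shows no binding. Promoters of this kind were at hand for 6 of the 9 members.

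In control mice the set of members seen differed between ECs, livers and macrophages, and Nog and Grem1 were hardly seen in any. Per kilobase of exon, Bambi (2.86 ± 2.01 CPM per kb, SD, n = 3), Bmper (2.33 ± 0.357), Fstl1 (2.14 ± 0.967) and Twsg1 (2.12 ± 0.534) lay close together in control ECs, and their ranges overlapped. In control livers Twsg1 stood highest at 8.26 ± 0.532 CPM per kb, above Chrd at 1.50 ± 0.359, Fstl1 at 1.21 ± 0.380, Bambi at 0.765 ± 0.233, Fst at 0.692 ± 0.302 and Bmper at 0.381 ± 0.212. Every liver library lay higher for Twsg1 than for the next gene, while each pair of neighbours from Chrd down to Bmper overlapped. In the macrophages of the HSC-KO controls the highest was Twsg1 with 0.693 ± 0.0827 CPM per kb, followed by Bambi with 0.361 ± 0.162 and Fstl3 with 0.212 ± 0.184. In the Smad4 controls Twsg1 was again highest at 0.438 to 0.534 CPM per kb, followed by Fstl3 at 0.359 ± 0.0646, Fstl1 at 0.300 ± 0.0619 and Bambi at 0.242 ± 0.134, each overlapping its neighbour except Twsg1 and Fstl3.

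**Figure D1:**
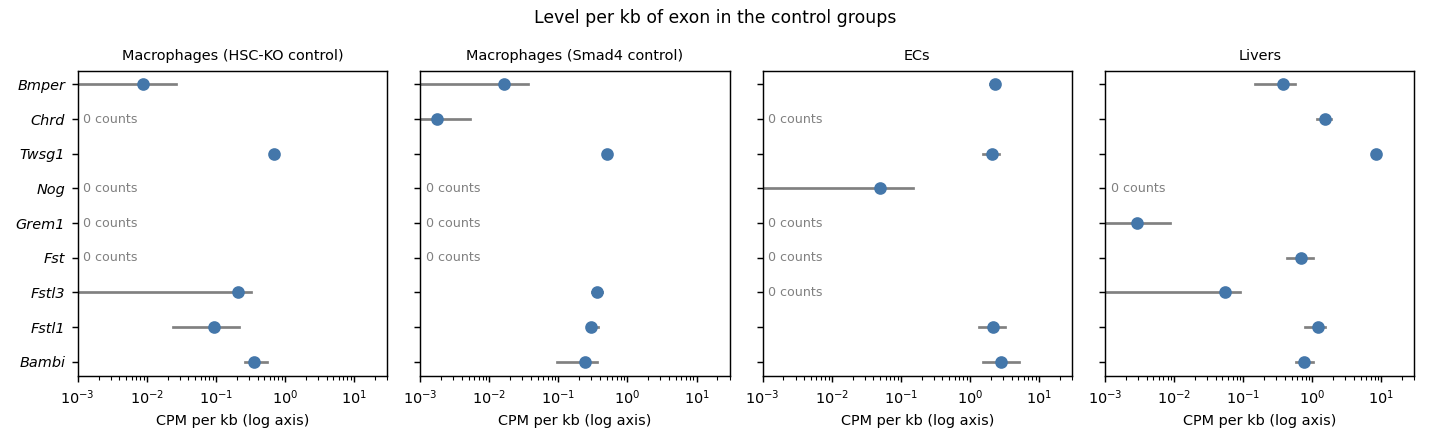
Level of each member in the 4 control groups, in CPM per kilobase of exon on a log axis, with the mean of 3 libraries as a point and the lowest to highest library as a line (a line reaching the left edge includes a library at 0). Bmper, Fstl1, Bambi and Twsg1 lie together in ECs, and Chrd and Fst have a point above 0.1 in livers alone.

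The cell type of expression was tested between control groups with edgeR's quasi-likelihood test, calling a gene where the adjusted p was below 0.05 and the log2 fold change exceeded 1 in size. Between control ECs and control macrophages, 4 of 4 tested members were called, against 36% of all 16263 genes tested, and all 4 were higher in ECs. Bmper, with 0, 11 and 0 counts in the macrophages, passed the filter on low counts through the ECs alone, so its call follows from the filter and the count is a description. The log2 differences were 7.66 (SE 0.96, adjusted p = 0.00059) for Bmper, 4.29 (SE 0.87, adjusted p = 0.0053) for Fstl1, 2.79 (SE 0.57, adjusted p = 0.0055) for Bambi and 1.42 (SE 0.25, adjusted p = 0.0031) for Twsg1. When tested against a log2 fold change of 1 with edgeR's glmTreat, 3 of them were called and Twsg1 was not (adjusted p = 0.072). Control macrophage replicate 2 held all 11 counts of Bmper in its group and 90 of Fstl1, beside 10 and 11 in the other libraries. Without it both calls held, at 5.95 for Fstl1 and at 12.6 for Bmper, a fitted value against 0 counts that is no bound. One mouse gave a library to both of these groups. Between control ECs and control livers, 5 of 6 tested members were called, against 59.9% of all 17387 genes. Chrd and Fst passed the filter through the livers alone, so nothing is read from this count, and 3 were called where at least 10 counts were required in every library. Bmper (log2 difference 2.10, SE 0.47, adjusted p = 0.0041) and Bambi (1.38, SE 0.48, adjusted p = 0.032) were higher in ECs, Twsg1 was lower (-2.48, SE 0.21, adjusted p = 2e-05), and Fstl1 was not called (0.30, 95% CI -0.59 to 1.18). The Bambi call was lost without control EC replicate 1 (log2 difference 0.63) and without control liver replicate 2 (1.22) or 3 (1.28). Chrd was at least 194-fold and Fst at least 65.4-fold lower in ECs, where all 3 libraries had 0 counts. Livers were also older than the sorted cells and came from other RNA extractions, so these cannot be told apart from cell type in this comparison.

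**Figure D2:**
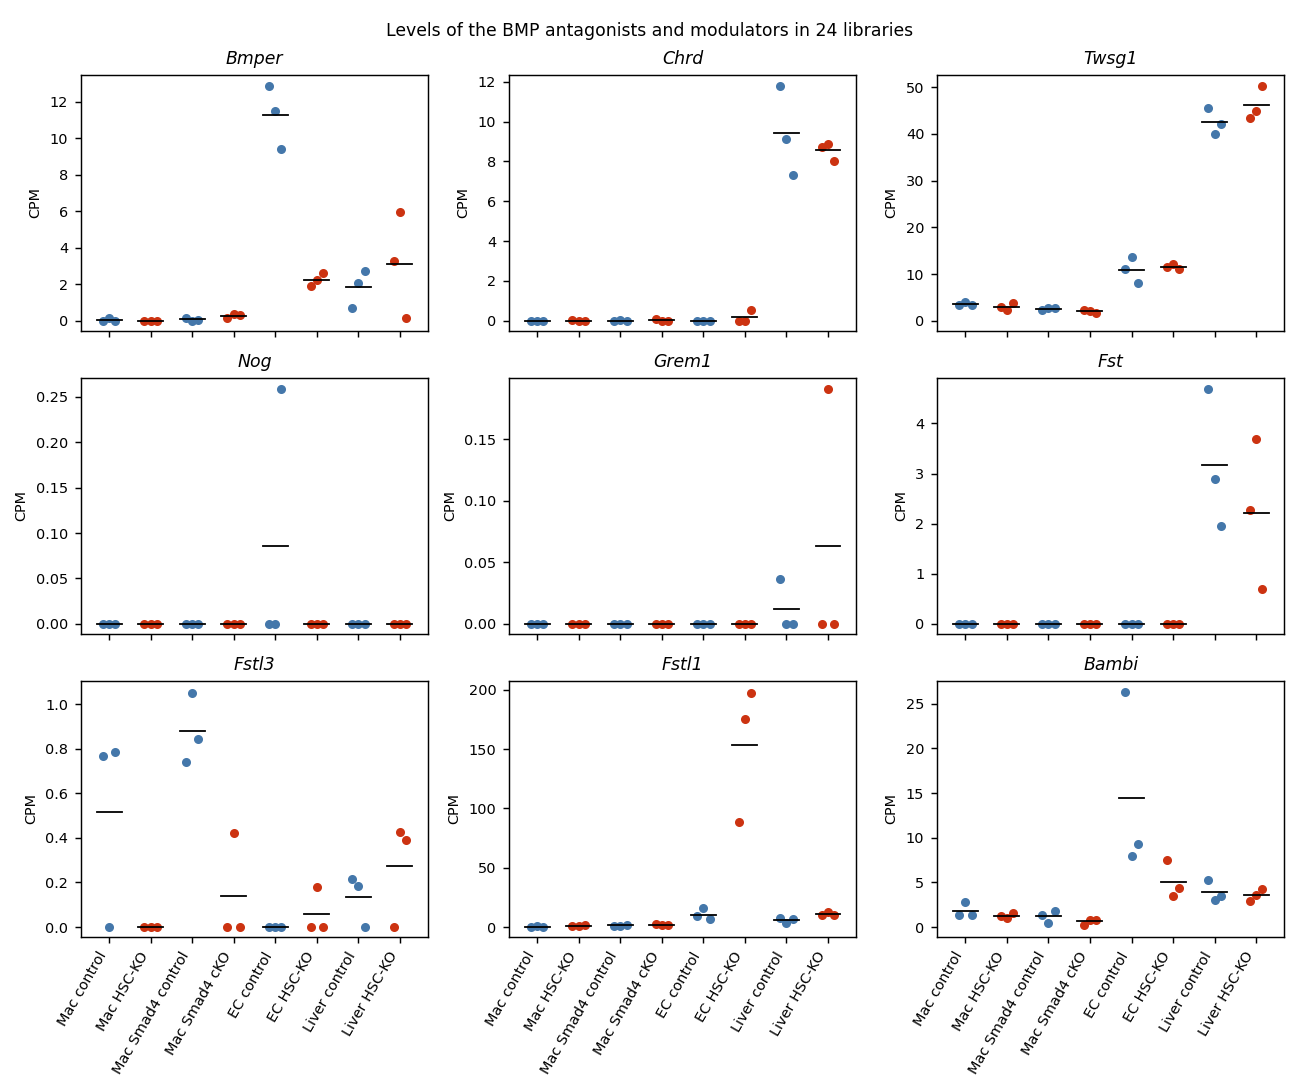
CPM of each member in every library, with 3 points and a bar at the mean for each of the 8 groups (Mac, sorted liver macrophages), each panel on its own linear scale. Fstl1 reaches 198 CPM in HSC-KO ECs and no more than 15.8 CPM in control ECs, while Bmper is highest in control ECs.

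Among the ligand binders of the chordin family, Bmper fell in HSC-KO ECs. It had 1054, 711 and 695 counts in the 3 control EC libraries and 182, 160 and 214 counts in the 3 HSC-KO EC libraries. Every HSC-KO library lay below every control library. The mean fell from 11.3 ± 1.72 CPM to 2.26 ± 0.344 CPM (SD, n = 3 each), a 4.98-fold decrease (log2 fold change -2.32, SE 0.22, 95% CI -2.83 to -1.80, adjusted p = 0.00047). When the comparison was fitted over all 24 libraries together, the value was -2.29 and the call was lost (adjusted p = 0.14). In livers Bmper had 79, 161 and 245 counts in controls and 245, 502 and 12 in HSC-KO mice. The liver groups overlapped widely, and the log2 fold change was 0.77 with a 95% CI of -1.52 to 3.06. In macrophages Bmper was near its detection limit, with 0, 11 and 0 counts in controls and 0 in all HSC-KO libraries. The Smad4 controls had 17, 0 and 6 counts and the Smad4 cKO libraries 14, 44 and 27, a difference that was not called (log2 fold change 1.84, adjusted p = 0.39). Endothelial markers summed to 685 to 2159 CPM in those 6 libraries, and the part of their RNA in the Bmper counts was not tested.

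Chrd, which encodes chordin, was a liver transcript in these data. Control livers had 1301, 702 and 660 counts and HSC-KO livers 653, 745 and 578. The groups overlapped, at 9.41 ± 2.24 CPM and 8.55 ± 0.441 CPM (log2 fold change -0.14, 95% CI -0.60 to 0.32). The control ECs had 0 counts, the HSC-KO ECs had 0, 0 and 43, and no macrophage library had more than 11. Exons of Chrd share 239 bases with those of Thpo on the opposite strand, and the use of strand in the counting is not stated.

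Twsg1 was detected in all 24 libraries and was called in no mutant comparison. It had 907, 840 and 595 counts in control ECs and 1079, 875 and 898 in HSC-KO ECs, where the log2 fold change was 0.08 (95% CI -0.40 to 0.57). Control livers held 5025, 3075 and 3802 counts and HSC-KO livers 3231, 3781 and 3609 (log2 fold change 0.12, 95% CI -0.15 to 0.38). In macrophages the log2 fold change was -0.25 (95% CI -0.88 to 0.39) in HSC-KO mice and -0.31 (95% CI -0.86 to 0.23) in Smad4 cKO mice. The intervals in ECs and livers lie within a log2 change of 1 in either direction, as do those in macrophages.

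Nog and Grem1, the genes of noggin and gremlin 1, were hardly seen. Nog had 19 counts in control EC replicate 3 and 0 in the other 23 libraries. Grem1 had 4 counts in control liver replicate 1, 16 in HSC-KO liver replicate 2 and 0 in the other 22. Neither gene was tested in any of the comparisons.

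Of the activin binders, Fst was found in livers alone, with 517, 222 and 176 counts in controls and 169, 311 and 50 in HSC-KO mice. The groups overlapped (log2 fold change -0.51, 95% CI -1.86 to 0.84), and all 18 libraries of sorted cells had 0 counts. Fstl3 was a low macrophage transcript. It had 72, 95 and 87 counts in the Smad4 controls and 0, 49 and 0 in the Smad4 cKO macrophages, so the groups did not overlap. The difference was not called (log2 fold change -2.58, SE 1.36, 95% CI -5.75 to 0.59, adjusted p = 0.34), but it was called without Smad4 cKO replicate 2, the library with 49 counts (adjusted p = 0.0054). In the other pair of macrophage groups Fstl3 had 65, 0 and 45 counts in controls and 0 in all 3 HSC-KO libraries. It failed the filter on low counts there, and it was called when control replicate 2, whose own count was 0, was left out. In that control group 139 genes had 0 counts in 1 library and at least 30 in both others. Livers had 24, 14 and 0 counts in controls and 0, 36 and 28 in HSC-KO mice, and ECs had 13 counts in 1 HSC-KO library and 0 in the other 5. Exons of Fstl3 share 1157 bases with those of Prss57 on the opposite strand.

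Fstl1 showed the largest change of the tested members in ECs. It had 744, 977 and 487 counts in control ECs and 8319, 12591 and 16176 counts in HSC-KO ECs. The lowest HSC-KO library was far above the highest control library. The mean rose from 10.5 ± 4.75 CPM to 154 ± 57.9 CPM (SD, n = 3 each), a 14.7-fold increase (log2 fold change 3.88, SE 0.43, 95% CI 2.88 to 4.87, adjusted p = 0.00093). Per kilobase, Fstl1 made up 22.5% of the summed level of the 9 genes in control ECs and 89.3% in HSC-KO ECs. Stellate cells also express Fstl1, and 10 stellate markers summed to 111, 75.7 and 25.3 CPM in the control ECs and to 35.3, 43.9 and 29.7 CPM in the HSC-KO ECs. The stellate sum in every HSC-KO library lay below that of 2 of the 3 control libraries. The sum of 6 smooth muscle and portal fibroblast markers did not overlap, at 3.94, 2.76 and 2.48 CPM in the control ECs and 5.70, 5.16 and 4.77 CPM in the HSC-KO ECs. Of these markers, Gli1 was at 0 in all 6 EC libraries and Cnn1 in the 3 HSC-KO libraries. The part of these cells in the Fstl1 difference was not tested.

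In livers Fstl1 had 815, 295 and 601 counts in controls and 763, 1103 and 745 in HSC-KO mice. Scaled to library size the groups did not overlap, at 5.96 ± 1.87 CPM and 11.2 ± 1.63 CPM, and the log2 fold change was 0.91 (SE 0.26, 95% CI 0.31 to 1.52). It was not called by edgeR's test (unadjusted p = 0.0085, adjusted p = 0.15). DESeq2 gave an adjusted p of 0.018 with a log2 fold change of 0.92, under the limit of 1 for a call, and the other alternatives gave adjusted p-values of 0.14 to 1. The 10 stellate markers summed to 267 to 379 CPM in control livers and 540 to 573 CPM in HSC-KO livers, and their part in the Fstl1 difference was not tested. In a bulk sample, more cells of a type and more RNA per cell cannot be told apart.

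Fstl1 was low in macrophages. The HSC-KO controls had 10, 90 and 11 counts and the HSC-KO libraries 101, 68 and 159. Control replicate 2 lay among the HSC-KO libraries, and the log2 fold change of 1.38 was not called (95% CI -0.59 to 3.36, adjusted p = 0.31). Without control replicate 2 it was 2.95 and called (adjusted p = 0.042). That library had the highest endothelial (528 CPM) and stellate (72.0 CPM) marker sums of the 3 controls, whose other sums were 259 and 385 CPM for endothelial and 9.11 and 43.2 CPM for stellate markers. Stellate markers summed to 47.6 to 119 CPM in the HSC-KO macrophages. The smooth muscle and portal fibroblast sums were 3.04 to 5.64 CPM in the controls and 6.69 to 27.3 CPM in the HSC-KO macrophages, and those of 4 lymphocyte markers were 10.4 to 19.2 CPM and 28.8 to 90.6 CPM. Neither sum overlapped between the groups, and both were highest in HSC-KO replicate 3, the library with 159 counts of Fstl1. Also without overlap, endothelial sums were 30.3 to 95.9 CPM in the HSC-KO macrophages, below the controls, those of 4 mesothelial markers were at most 0.0591 CPM in controls and 0.105 to 0.433 CPM in HSC-KO, and those of 4 cholangiocyte markers were 0.284 to 1.20 CPM and 1.49 to 2.82 CPM. The part of any of these cell types was not tested. The Smad4 controls had 123, 120 and 188 counts and the Smad4 cKO macrophages 250, 181 and 160 (log2 fold change 0.45, 95% CI -0.24 to 1.15).

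**Figure D3:**
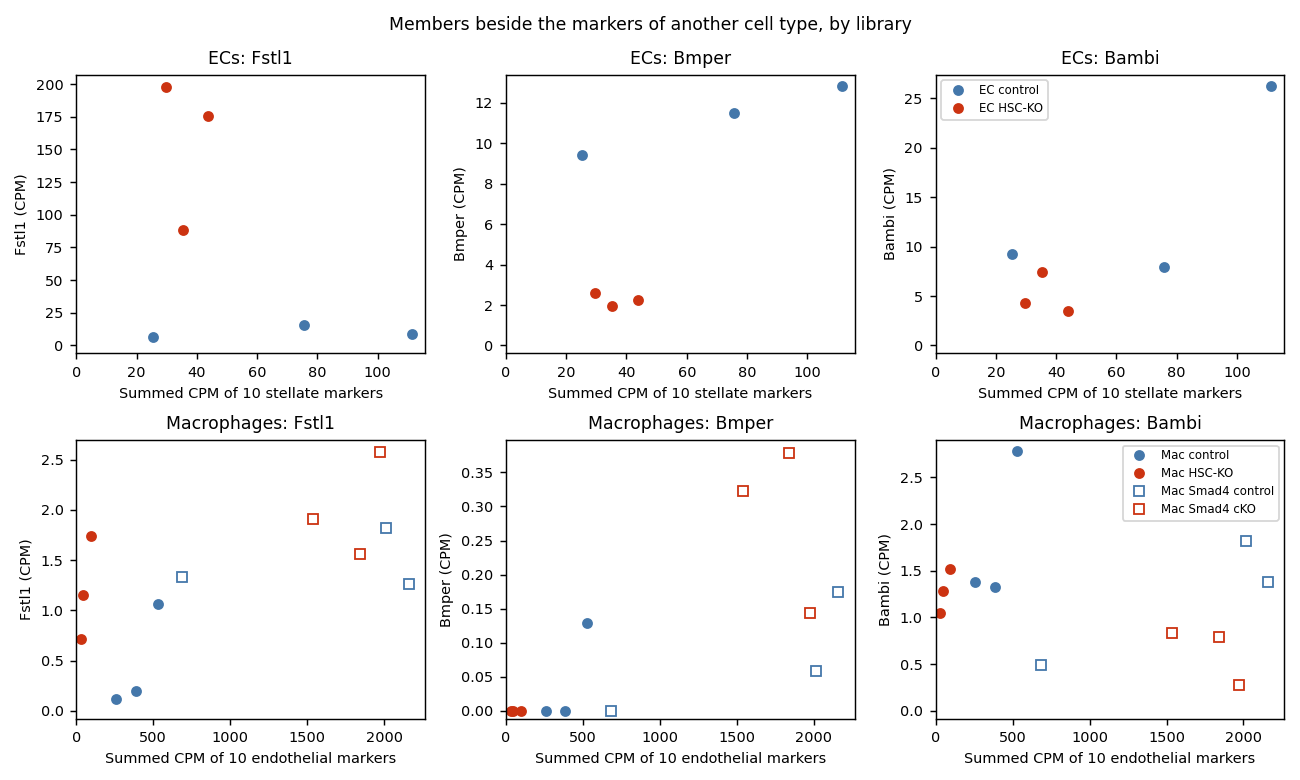
Fstl1, Bmper and Bambi (CPM, y axes) in each library beside the summed CPM of 10 stellate markers for ECs (top) or 10 endothelial markers for macrophages (bottom), with control libraries in blue and mutant libraries in red. The HSC-KO ECs lie at 29.7 to 43.9 CPM of stellate markers, within the control range of 25.3 to 111 CPM. The smooth muscle and portal fibroblast sums, which are not plotted, were 2.48 to 3.94 CPM in control ECs and 4.77 to 5.70 CPM in HSC-KO ECs.

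Bambi, the membrane pseudoreceptor, was lower in every HSC-KO EC library than in any control library once scaled. It had 2153, 492 and 683 counts in control ECs and 703, 247 and 355 in HSC-KO ECs, at 14.5 ± 10.2 CPM and 5.08 ± 2.11 CPM. The log2 fold change of -1.51 (SE 0.51, 95% CI -2.69 to -0.33) was not called by edgeR's test (adjusted p = 0.077). DESeq2 called it (adjusted p = 0.0076), as did edgeR with Xist as a covariate (adjusted p = 0.013) and edgeR with the replicate block described below. Control EC replicate 1 was the highest of all EC libraries for Bambi and also for the stellate marker sum, and without it the log2 fold change was -0.76. Livers had 577, 229 and 311 counts in controls and 220, 299 and 309 in HSC-KO mice (log2 fold change -0.11, 95% CI -0.76 to 0.54). Macrophages had 117, 236 and 76 counts in the HSC-KO controls and 113, 100 and 139 in HSC-KO mice (log2 fold change -0.51, 95% CI -1.47 to 0.45). The Smad4 controls had 134, 44 and 188 counts and the Smad4 cKO libraries 27, 92 and 70 (log2 fold change -0.95, 95% CI -2.34 to 0.43).

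**Figure D4:**
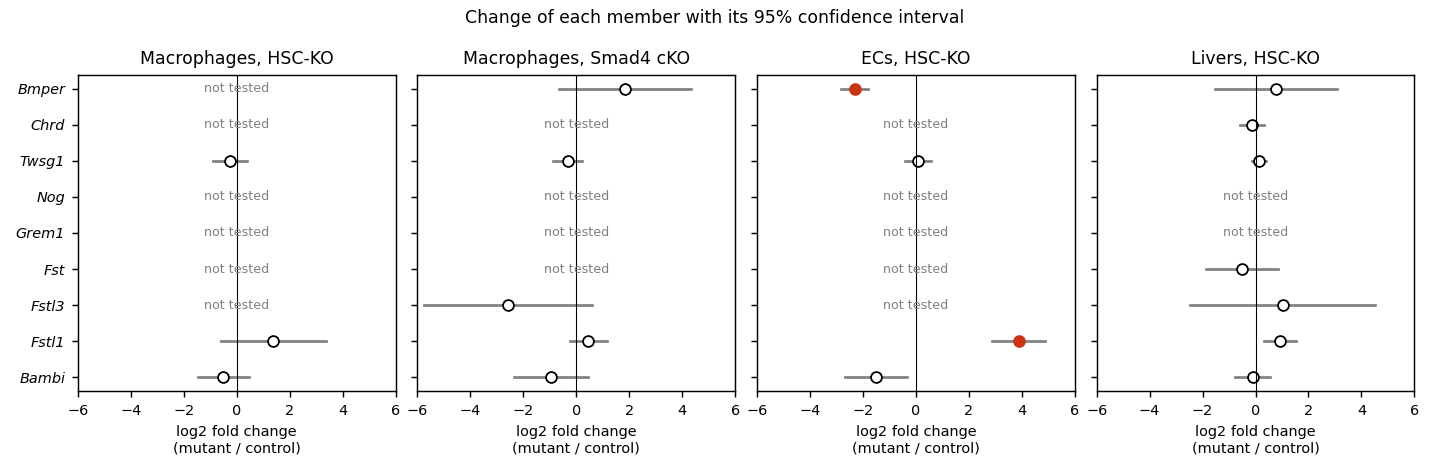
Log2 fold change of each tested member in the 4 comparisons of mutant with control, with its 95% confidence interval from edgeR's quasi-likelihood fit, filled in red where called. Bmper at -2.32 and Fstl1 at 3.88 in ECs are the 2 filled points.

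Counted by comparison, 2 of the 4 members tested in ECs were called, 1 higher and 1 lower, against 13.7% of 16053 genes. None was called in livers (0 of 7, against 2.48% of 17118 genes), in HSC-KO macrophages (0 of 3, against 11.7% of 16337) or in Smad4 cKO macrophages (0 of 5, against 5.43% of 17517) by edgeR's test. DESeq2 also called 0 in each of these 3 comparisons, and the unadjusted p was below 0.05 for 1 member in livers, Fstl1, and for 0 in either macrophage comparison. The difference between the EC and macrophage responses to HSC-KO was tested as an interaction, and 0 of 5 tested members were called, against 12.3% of 18325 genes. For 2 of them, Fstl1 and Fstl3, the unadjusted p was below 0.05, and DESeq2 called 1, Fstl1 (adjusted p = 0.031). Fstl3 had failed the filter in both single comparisons and entered through the 65, 0 and 45 counts of the control macrophages, so its p is not read as a difference in response. By edgeR the Fstl1 response was larger in ECs by 2.51 on the log2 scale (SE 0.92, 95% CI 0.49 to 4.52, adjusted p = 0.091). Without control macrophage replicate 2 the difference was 0.88 (adjusted p = 0.55), and without control macrophage replicate 1 it was 2.98 and called (adjusted p = 0.036). The difference between the macrophage responses to HSC-KO and to Smad4 cKO was called for 0 of 5 tested members by edgeR and by DESeq2, against 2.68% of 18263 genes, with an unadjusted p below 0.05 for 1, Bmper. With 0, 11 and 0 counts against 0 in the HSC-KO pair, Bmper entered through the Smad4 libraries, and its p is likewise not read as a difference.

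Other genes of the pathway were followed through 4 lists. Of 27 other extracellular antagonists and modulators, 26 were in the tables. In ECs 13 of them were tested and 5 were called, 3 higher and 2 lower, against 13.7% of all genes, with a median log2 fold change of 0.13 against 0.0047 over all genes. Htra3, with 7, 0 and 5 counts in control ECs, and Tmeff1, with 0 in each, passed the filter through the HSC-KO libraries alone. Nothing is read from this count. Htra3, a secreted serine protease, rose from 0.0511 ± 0.0451 CPM to 4.32 ± 2.45 CPM (log2 fold change 6.29, adjusted p = 0.0021). Nbl1, a BMP antagonist of the DAN family, rose by 2.62 on the log2 scale (adjusted p = 0.0035), and Tmeff1, a membrane protein with follistatin-like domains, rose from 0 counts in all control libraries to 13, 58 and 16 counts. Kcp, a chordin-like protein reported to enhance BMP signalling, fell in ECs from 3.49 ± 0.415 CPM to 0.239 ± 0.115 CPM (log2 fold change -3.86, adjusted p = 0.0014), and the protease gene Htra1 fell by 2.21 on the log2 scale (adjusted p = 0.026). Kcp stood at 22.1 to 23.6 CPM in the macrophages of the HSC-KO controls, and the 10 macrophage markers summed to 36.6 to 43.7 CPM in control ECs and 1.89 to 3.50 CPM in HSC-KO ECs. The part of macrophage RNA in the fall of Kcp in ECs was not tested.

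Kcp also fell in both macrophage comparisons. It had 1983, 1876 and 1351 counts in the HSC-KO controls and 54, 256 and 95 in HSC-KO macrophages (log2 fold change -3.99, adjusted p = 0.0018). The Smad4 controls had 2463, 3237 and 3464 counts and the Smad4 cKO macrophages 323, 341 and 225 (log2 fold change -3.40, adjusted p = 0.00013). Neither pair overlapped. Tmeff1 fell in both as well, by 2.30 on the log2 scale in HSC-KO macrophages (adjusted p = 0.011) and at least 35.3-fold in Smad4 cKO macrophages, where all 3 libraries had 0 counts. Of the 11 genes of this list tested in each, 2 were called lower in HSC-KO macrophages, near the 11.7% of all genes called there, and 2 lower and 1 higher in Smad4 cKO macrophages, against 5.43%, the riser being Htra3 (log2 fold change 6.60, adjusted p = 0.0001). Htra3 had 12, 8 and 7 counts in the Smad4 controls, and both Htra3 and Tmeff1 passed the filter there through 1 group. Nothing is read from the Smad4 count. Cholangiocyte sums in the Smad4 pair were 1.27 to 1.41 CPM in controls and 5.81 to 8.70 CPM in cKO macrophages, without overlap. Their part was not tested. In livers 2 of 16 were called, against 2.48% of all genes, both higher, Smoc2 (log2 fold change 2.11, adjusted p = 0.024), which encodes a secreted matricellular protein, and Htra3 (2.21, adjusted p = 0.0023). Stellate sums were higher in the HSC-KO livers, as given above. The 10 macrophage markers summed to 355 to 620 CPM in control livers and 42.9 to 66.2 CPM in HSC-KO livers. Endothelial sums were 413 to 514 CPM against 340 to 395 CPM. Lymphocyte sums were 2.76 to 5.18 CPM against 0.696 to 1.87 CPM. The 6 hepatocyte markers summed to 98247 to 121995 CPM against 124409 to 168573 CPM. None of these overlapped, and the part of any of these cell types was not tested.

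The proteases that cleave chordin form the second list. Bmp1 rose in ECs from 0.854 ± 0.444 CPM to 54.7 ± 15.7 CPM (log2 fold change 5.99, SE 0.44, adjusted p = 0.00018), and Tll1 rose at least 32.6-fold from 0 counts in all control libraries. In livers Bmp1 stood at 178 ± 31.4 CPM in controls and 158 ± 4.23 CPM in HSC-KO mice (log2 fold change -0.17, 95% CI -0.53 to 0.19). Bmp1 was the only gene of the list tested in the other 3 comparisons and was called in none of them by edgeR, with an unadjusted p below 0.05 in both macrophage comparisons and a call by DESeq2 in Smad4 cKO macrophages.

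Of the 11 ligand genes, 8 were tested in ECs and 5 were called, against 13.7% of all genes. Gdf2, among these 5, is a deleted gene and passed the filter through the control ECs alone, so nothing is read from this count. Bmp2 fell from 463 ± 87.0 CPM to 14.3 ± 15.8 CPM (log2 fold change -5.01, adjusted p = 0.0049), Bmp6 fell by 3.68 (adjusted p = 6.1e-05) and Gdf2 by 6.39 on the log2 scale (adjusted p = 0.0075). Gdf2 stood at 2.94, 1.75 and 1.03 CPM in the control ECs, in the same order as their stellate sums of 111, 75.7 and 25.3 CPM. In the HSC-KO ECs the levels of Gdf2 were 0, 0.0698 and 0 CPM. The part of stellate RNA in the Gdf2 difference was not tested. Bmp4 rose by 1.86 (adjusted p = 0.0016) and Gdf11 by 1.85 (adjusted p = 0.0063). In livers 5 of 10 were called, against 2.48% of all genes, namely Gdf2, Bmp10, Bmp2 (log2 fold change -4.77) and Bmp6 (-1.81) lower and Bmp4 higher (1.30, adjusted p = 0.045). Gdf2 and Bmp10 are the deleted genes, so their calls were set by the design and nothing is read from the liver count. No ligand gene was called by edgeR in the macrophages of HSC-KO mice (0 of 8, with 2 at an unadjusted p below 0.05 and 3 called by DESeq2) or of Smad4 cKO mice (0 of 9, with 0 at an unadjusted p below 0.05 and 0 called by DESeq2).

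The fourth list holds 8 intracellular inhibitors and immediate targets of BMP signalling, all tested in each comparison. In HSC-KO macrophages 5 fell, against 11.7% of all genes called, with a median log2 fold change of -2.63 over the list against 0.039 over all genes. These were Smad6 (-4.17, adjusted p = 0.0041), Smad7 (-1.77), Id1 (-7.56), Id2 (-1.32, adjusted p = 0.043) and Id3, which went from 1035 ± 108 CPM to 3.45 ± 2.66 CPM (log2 fold change -8.23, adjusted p = 0.00018). In Smad4 cKO macrophages 4 fell, against 5.43% called, namely Smad7, Id1, Id2 and Id3 (median -1.09 against 0.036). In ECs 4 fell, against 13.7% called, namely Smad6 (log2 fold change -3.01, adjusted p = 0.00036), Smad7 (-1.80), Id2 (-2.28) and Id4 (-1.34), while Id1 was not called (0.17, 95% CI -0.47 to 0.80), and the median was -1.11 against 0.0047. In livers 1 fell by edgeR's test, against 2.48% called, Smad6 (log2 fold change -2.14, adjusted p = 0.026), with a median of 0.041 against -0.0098. The unadjusted p was below 0.05 for 2 of the list in livers, and DESeq2 called 2. Id4 stood at 2.07 to 2.35 CPM in control livers and 0.849 to 0.964 CPM in HSC-KO livers, without overlap. The deletions act on this pathway, so these lists describe the setting in which the 9 genes were measured.

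**Figure D5:**
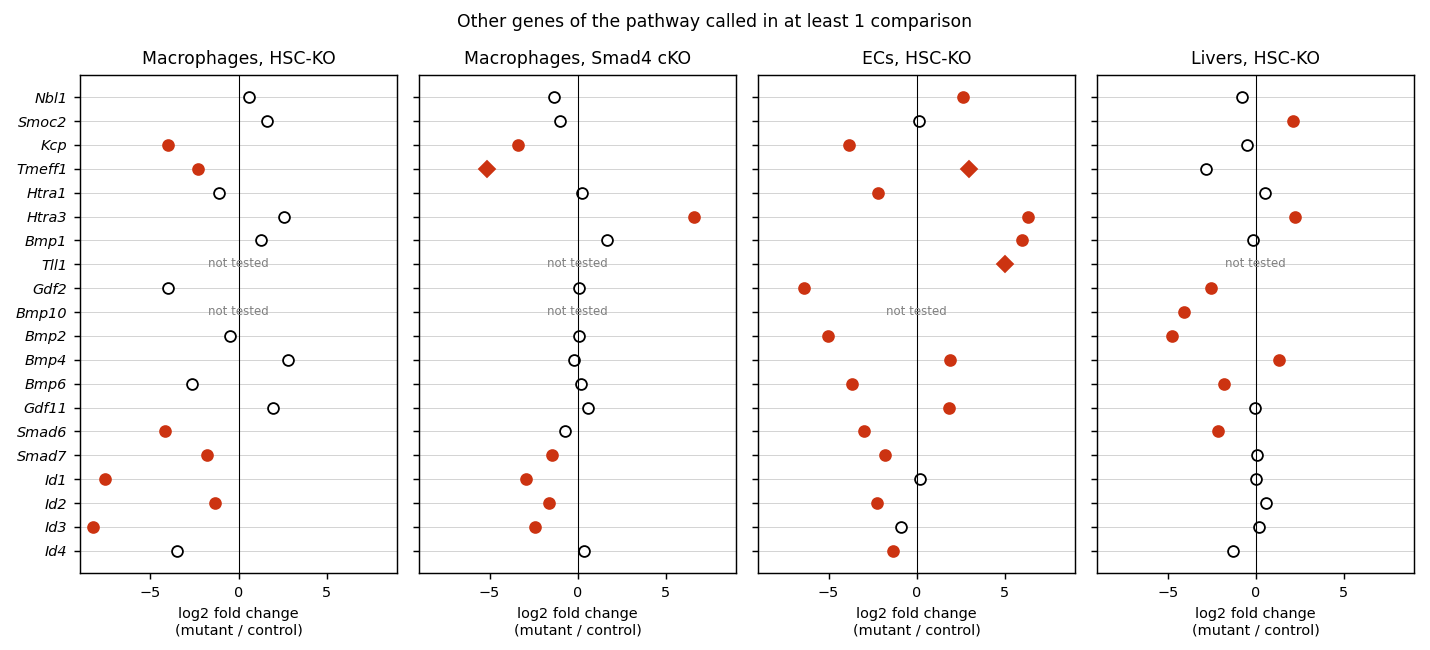
Log2 fold change, mutant against control, of each gene of the 4 lists called in at least 1 comparison, filled in red where called and open where tested but not called, with diamonds for bounds against a group at 0 counts. Kcp is called lower in 3 panels, and Bmp1 and Tll1 are called higher in ECs.

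The genes most like each member across the 24 libraries were found by Pearson's r of log2 CPM over 15546 genes, as a description, since libraries of a cell type share most of their differences. For Fstl1 these were C1qtnf2 (r = 0.96), Etl4 (0.96) and Spry1 (0.96), and for Bmper they were Xkr6 (0.95), Spns2 (0.94) and Fkbp14 (0.94). Bambi was nearest to Tmem158 (0.93), Twsg1 to Rassf8 (0.99), Chrd to Tead3 (0.97) and Fst to Gm15318 (0.996). Fst was at 0 counts in every library of sorted cells.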

How the data were processed

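Reads were aligned to mm10 (GRCm38) with HISAT2 and counted per gene with featureCounts by the authors, who deposited the whole-number counts without normalization in 4 tables. Tool versions, the annotation release and the use of strand are not given in the sources used here. The labels name a Hieff NGS Ultima Dual-mode library kit, whereas the study's methods name an Ultra RNA kit from Illumina. Each table has 48820 entries, of which 237 symbols occur more than once and were kept apart in single-table fits and summed across tables. No column of per-sample values was left unused (0), and no 2 libraries were identical.

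In R 4.3.3 with edgeR 4.0.16 and limma 3.58.1, filterByExpr kept genes by a minimum count of 10 and a total of 15. TMM factors scaled the libraries, and edgeR's quasi-likelihood test was run over the libraries of each comparison, with Benjamini-Hochberg adjustment over all genes tested. Calls needed an adjusted p below 0.05 with a log2 fold change over 1 in size. The standard error is the size of the log2 fold change over the square root of F. CPM uses the factors of each table's own 6 libraries, so levels set across tables were scaled separately. Exon lengths and overlaps came from GENCODE vM21, which may not be the authors' release. Python 3.11.15 was used for annotation and figures. The fits were tested on simulated data.

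The replicates are separate mice by the study's methods, and 3 of them contributed libraries of both sorted cell types, which the fits do not model. The members and lists were chosen with earlier results of these data known. All members are named, and list genes where called. Neighbours were sought for members with at least 1 CPM in at least 3 libraries. The 3 of highest r are named for Fstl1 and Bmper, and the nearest for the others. A permutation of 3 against 3 libraries cannot give a p below 0.10, so p-values come from models over all genes. The alternatives were DESeq2 1.42.0, its size factors, library size alone, other filters, glmTreat, a replicate block, all 24 libraries in 1 fit, a term for Xist (where it spanned over 4 on the log2 scale) and each library left out.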

Additional observations from a re-analysis of the deposited data

How the results depend on the processing

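Of 713 alternative values for the members and their counts, 683 were scored as unchanged. For a member this meant the same direction and side of the threshold. A count of members called also passed where it lay near the main count, such as 3 against 2 in ECs. Between control ECs and macrophages, 3 or 5 against 4 passed as well. Without 1 library at a time, the number of members called ranged from 0 to 2 in HSC-KO macrophages, 0 to 1 in Smad4 cKO macrophages, 0 to 1 for the EC against the macrophage response, and stayed at 2 in ECs and 0 in livers. Over all 24 libraries in 1 fit, 1 member was called in ECs, and DESeq2 called 1 in the EC against macrophage response. With at least 10 counts in every library, 3 were called between control ECs and livers, since members at 0 in ECs then fall out of the test. Leaving out 1 library turned the sign of log2 fold changes that were not called. The ranges were -0.10 to 0.27 for Twsg1 in ECs, and in livers -0.27 to 0.067 for Chrd, -0.26 to 0.18 for Bambi and -0.091 to 1.33 for Bmper. They were -2.32 to 3.33 for Bmper in the EC against macrophage response, -0.073 to 0.27 for Twsg1 and -6.57 to 0.75 for Fstl3 in the HSC-KO against Smad4 cKO response, and -0.13 to 0.55 for Fstl1 between control ECs and livers. The cause was not tested.

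The replicate numbers did not pair the samples, with same-number correlations of -0.11 to 0.16. With the replicate block, 3 members were called in ECs, namely Bmper, Fstl1 and Bambi (log2 fold change -1.38, adjusted p = 0.011), and the block changed no call of a member in the other comparisons. Over all genes, glmTreat called 906 in HSC-KO macrophages, 315 in Smad4 cKO macrophages, 1096 in ECs and 142 in livers, against 1904, 951, 2198 and 425. In livers DESeq2 called 794, the replicate block 271, and the leave-out fits as few as 188. For the interactions glmTreat called 980 and 110 against 2245 and 489, and DESeq2 called 1045 for the latter. With library size alone the median log2 fold change of all genes was 0.30 in ECs, against 0.0047, and 0.15 between control ECs and livers, against -0.16. Members under about 3 counts in a library cannot be compared at this depth.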

Other observations

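Several low counts of the members rest on single libraries, such as 19 counts of Nog in 1 control EC library, 43 of Chrd in 1 HSC-KO EC library and 49 of Fstl3 in 1 Smad4 cKO macrophage library, each beside 0 counts in the other 2 libraries of its group. Genes with 0 counts in 1 library and at least 30 in both others numbered 139 in the control macrophages of the HSC-KO pair and 45 to 88 in the other 7 groups.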
